A study of Mus musculus with 56 samples.

Results

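RNAPII-pS2, the form of RNA polymerase II that carries phosphate on serine 2 of its C-terminal repeats, was profiled by ChIP-seq in mouse bone marrow-derived macrophages (BMDMs) with and without 1 hr of LPS. The members are the 4 peak lists of that antibody labelled ctrl/ctrl (replicates 1 and 2) and ctrl/LPS (replicates 1 and 2), out of 56 lists in the series and 12 for this antibody. All peaks of the 4 lists were used, from 26837 to 27175 per sample.

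The cells came from wild-type mice of 8 to 12 weeks and were differentiated for 6 days in L929 supernatant, the source of MCSF. The ctrl/ctrl cells received neither IL-4 nor LPS, and the ctrl/LPS cells received LPS for 1 hr, at 100 ng/ml by the sample labels (the study's methods give the dose in nM). IL-4 PT/ctrl and IL-4 PT/LPS cells first spent 24 hr in IL-4 at a dose of 20 ng/ml, and the latter then received the same LPS. Cells were cross-linked with DSG and formaldehyde, and each group had 2 samples.

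Serine 5 of the repeats is phosphorylated as polymerase starts a transcript, and serine 2 as it is released from pausing and travels through the gene, so that RNAPII-pS2 is known to gather over gene bodies and past the 3′ end. LPS is a bacterial lipid that binds TLR4 and its partners on macrophages. The receptor activates NF-kB, of which p65 is a subunit, and interferon regulatory factors, and within minutes genes for cytokines, chemokines, and feedback inhibitors are transcribed.

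A peak carries the score given by the peak caller, a −log10 significance, so a score measures how firmly a peak was called and not the amount of polymerase. No reads were used here, so depth is unknown. The median score was 8.18 and 7.79 in the controls and 9.31 and 8.6 after LPS. Across 10300 genes, the gene values of replicates correlated with r = 0.82 (ctrl/ctrl) and r = 0.86 (ctrl/LPS), and those of a control and an LPS sample with r = 0.498 to 0.505, as a description across genes of the same libraries. Of 8 macrophage markers all had a peak in all 4 samples, of 28 markers of other cell types 4 did, and the 5 fibroblast markers had none. Of 6 neutrophil and granulocyte precursor markers, 3 had a peak in any sample, and their summed score was 4.91 and 0 in the controls and 31.6 and 28.1 after LPS, with S100a9 and Camp called higher by gene span and Ly6g, Elane, and Mpo without a peak. The part of such cells in the results was not tested.

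The sequence just upstream of a few LPS-induced genes is shown first, because p65 peaks overlapped it and because each gene lay under an RNAPII-pS2 peak that was broad only after LPS. The sequences are from RefSeq (GRCm38.p6, the assembly named mm10 in the peak lists), run 5′ to 3′ on the gene's strand, and stop before the annotated gene. Capitals mark matches to the 10-base NF-kB consensus on either strand (2 overlapping matches at Cxcl2).

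Cxcl2 (chr5:90903649-90903870, plus strand): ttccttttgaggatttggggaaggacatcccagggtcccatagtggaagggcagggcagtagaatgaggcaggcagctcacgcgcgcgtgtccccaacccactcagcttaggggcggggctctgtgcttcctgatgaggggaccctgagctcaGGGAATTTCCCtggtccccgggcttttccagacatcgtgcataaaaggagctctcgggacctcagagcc
Nfkbia (chr12:55492648-55492897, minus strand): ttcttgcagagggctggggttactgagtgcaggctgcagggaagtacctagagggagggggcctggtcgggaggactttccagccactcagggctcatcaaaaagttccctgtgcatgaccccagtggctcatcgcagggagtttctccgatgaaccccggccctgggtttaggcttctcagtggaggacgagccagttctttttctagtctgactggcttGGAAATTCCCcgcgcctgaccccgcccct
Tnf (chr17:35202008-35202257, minus strand): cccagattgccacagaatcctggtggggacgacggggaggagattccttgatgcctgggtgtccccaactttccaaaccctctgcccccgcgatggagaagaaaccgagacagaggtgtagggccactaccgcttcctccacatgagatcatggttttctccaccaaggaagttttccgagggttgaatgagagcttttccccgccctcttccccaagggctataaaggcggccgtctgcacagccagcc

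The p65 peak over the Cxcl2 sequence scored 10.6 and 14.8 in the controls and 51.4 and 52.6 after LPS. Over the Nfkbia sequence p65 scored 58.1 and 61.2 in the controls and 65.6 and 89.8 after LPS. Over the Tnf sequence p65 had no peak and a peak of 3.34 in the controls, and peaks of 27.2 and 36.8 after LPS. In each of the 3 windows both LPS samples lay above both controls, and the Tnf window held no match to the consensus. The consensus was present within 250 bases upstream of 8.23% of the 27025 genes in the RefSeq table, which was not limited to genes with a peak. It was present at 16 of 68 genes (23.5%) under the LPS-only broad peaks described next, and at 1 of 9 (11.1%) under those broad only without LPS. These genes are the ones a region overlaps most, such as Art3 for the region of Cxcl10, and the shares were not tested.

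A small number of peaks differed in width. Peaks of at least 2000 bp numbered 62 and 62 in the controls and 218 and 177 after LPS, and peaks of at least 3000 bp numbered 3 and 3 against 29 and 28. The median width hardly moved (429 and 427 bp against 435 and 429 bp), and peaks covered 13.7 and 13.4 Mb in the controls and 14 and 13.8 Mb after LPS. With 2 samples per group an exact permutation test cannot give a p under 0.33, so such sample totals are given as values. In IL-4 PT/ctrl, with no LPS, peaks of at least 2000 bp numbered 160 and 209, so these totals were not specific to LPS.

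Of 311 regions with a peak of at least 2000 bp in any of the 4 samples, 119 (38.3%) had one in both LPS samples and in neither control, 23 (7.4%) had one in both controls and in neither LPS sample, and 16 had one in all 4 samples. The 119 LPS-only broad regions were chosen by their width in these samples, so their widths here are a description. Their median widest peak was 859 and 759 bp in the controls and 2348 and 2363 bp after LPS, and 15 regions had no control peak. The regions lay on 84 protein-coding genes, 0.677% of the 12407 genes tested by gene span. They held 11 of the 36 interferon response genes listed, 6 of 22 chemokines, 5 of 34 immediate-early transcription factors, and 5 of 27 NF-kB subunits or inhibitors.

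Libraries that the choice did not use gave the same measure. RNAPII-pS5 was broad in both ctrl/LPS samples at 98 of the 119 regions and in both ctrl/ctrl samples at 3, with a median widest peak of 895 and 881 bp without LPS and 2362 and 2349 bp with it. RNAPII-pS2 was broad in both IL-4 PT/LPS samples at 77 regions and in both IL-4 PT/ctrl samples at 15. A p65 peak of both LPS samples overlapped 65 of the 119 regions (54.6%). The share was 47.8% of the regions broad only without LPS, 56.2% of those broad in all 4 samples, and 39.7% of all merged RNAPII-pS2 regions, so it was not particular to the LPS-only set.

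Nfkbia encodes IκBα, the inhibitor that NF-kB induces against itself, and had the widest such peak. Its widest peak was 1522 and 1655 bp in the controls and 5012 and 4973 bp after LPS (chr12:55486666-55491726). In both controls separate peaks lay at the start of the gene, within it, and beyond its end. After LPS a single peak ran from about 1 kb inside the gene to well past its end, and no separate peak was called at the start.

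Cxcl2 encodes a neutrophil-attracting chemokine. It had no peak on the gene in either control and a peak of 3777 and 3711 bp after LPS (chr5:90903955-90907731), which covered the gene of 2.068 kb and the sequence after it. Upstream peaks were called in all 4 samples. The map of peaks around 4 genes shows both patterns.

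**Figure D1:**
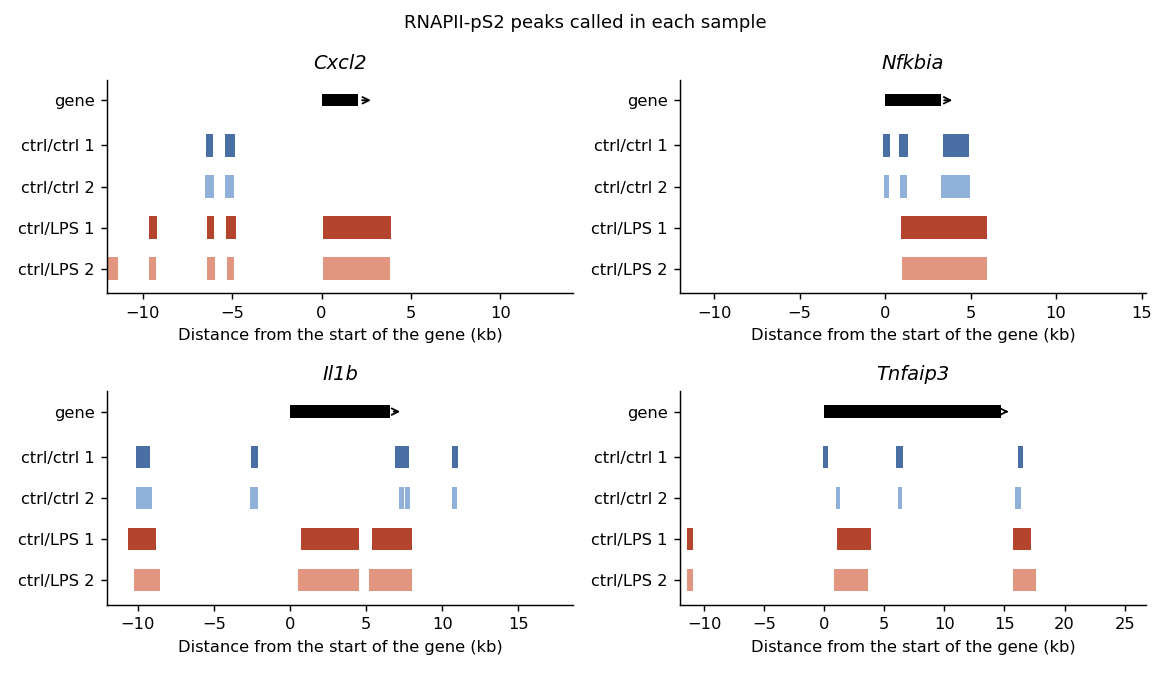
RNAPII-pS2 peaks called in each sample around Cxcl2, Nfkbia, Il1b, and Tnfaip3; the x axis is the distance from the start of the gene along its strand in kb, coloured bars are peaks (width to scale, score not shown), and the black bar is the gene with its direction. In both LPS samples a wide peak lies over the body of each gene where the controls have narrow peaks or none.

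Il1b, which encodes the inflammasome-processed cytokine IL-1β, had no peak on the gene in either control, and 3772 and 3981 bp after LPS (chr2:129366619-129370599). A second region at its end widened from 904 and 315 bp to 2673 and 2822 bp. Tnf, the founding inflammatory cytokine of this response, went from 1002 and 569 bp to 4073 and 4089 bp. Ifnb1, the type I interferon, went from 443 and 356 bp to 2702 and 2598 bp. In these regions the widest peak of each LPS sample exceeded that of each control.

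Among the chemokines, Ccl4 widened from 876 and 653 bp to 4298 and 4253 bp, and Ccl3 from 1801 and 1794 bp to 3528 and 3472 bp. Ccl5 had no peak in the controls and 4315 and 3888 bp after LPS. Ccl12 widened from 749 and 791 bp to 3669 and 3758 bp while its highest score went from 28.9 and 31.6 to 22.2 and 22.4. Width and score thus parted at Ccl12, and the highest score of both LPS samples lay under that of both controls at 6 of the 119 regions and above it at 94.

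Feedback genes were in the same set. The widths given are those within the region, and a gene could have other peaks outside it. Dusp1, a phosphatase that switches off p38 and JNK, went from no peak and 340 bp to 4536 and 4478 bp. Socs3, an inhibitor of cytokine receptor signalling, had no peak in the controls and 4009 and 3856 bp after LPS. Tnfaip3 (A20), which removes ubiquitin chains from the NF-kB pathway, went from no peak and 314 bp to 2830 and 2786 bp. Elsewhere on Tnfaip3, ctrl/ctrl replicate 1 had peaks of 403 and 571 bp and replicate 2 a peak of 396 bp. No peak was called there after LPS. Genes known to restrain the response were thus among the LPS-only broad regions.

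The inflammasome sensor Nlrp3 went from 941 and 954 bp to 2822 and 2800 bp, and Cd14, the co-receptor that hands LPS to TLR4, from 1004 and 728 bp to 2726 and 2759 bp. Acod1, the enzyme that makes itaconate, went from no peak and 245 bp to 2900 and 2687 bp. Rsad2 (viperin), an antiviral interferon-induced gene, went from 799 and 580 bp to 2963 and 2363 bp.

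**Figure D2:**
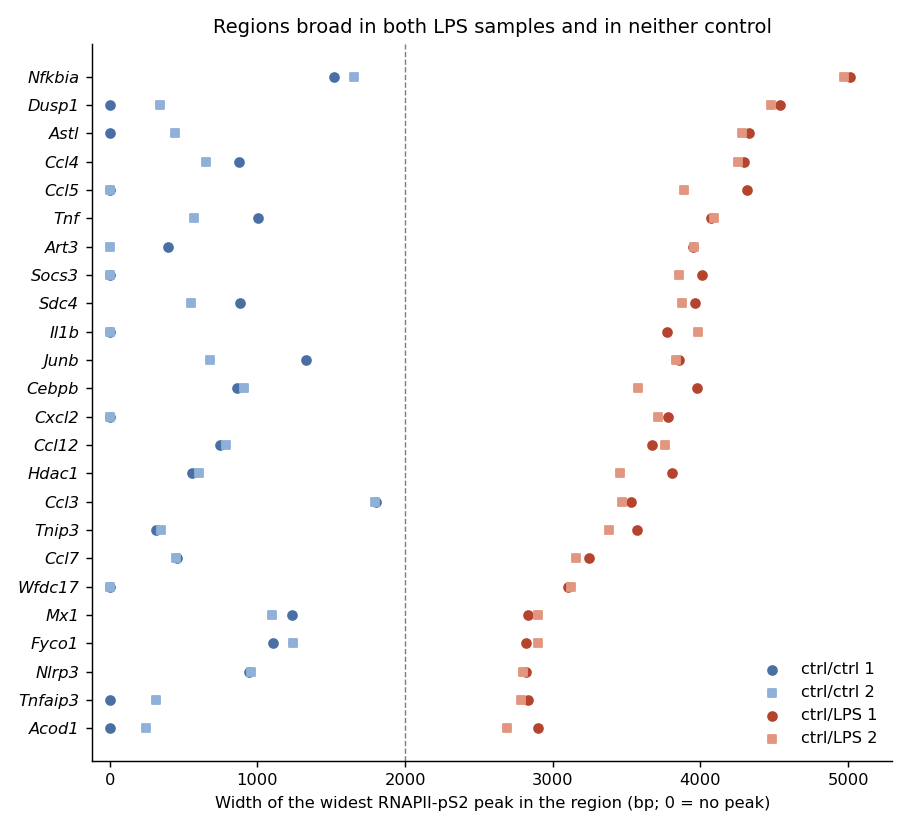
Width in bp of the widest RNAPII-pS2 peak in each of 24 regions that were at least 2000 bp wide (dashed line) in both LPS samples and in neither control, by sample; regions are named by the protein-coding gene they overlap most and ordered by width after LPS. Control points lie between 0 and 1801 bp, and LPS points between 2687 and 5012 bp. The region named Astl also covers the end of Dusp2, that named Art3 covers Cxcl10, and the peak in that named Hdac1 carries the name Marcksl1. Regions on no protein-coding gene or on genes with names starting in Gm are left out, among them the one whose peak carries the name Ccl2.

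The 23 regions that were broad only without LPS lay on 16 protein-coding genes, 0.129% of the genes tested by gene span. These genes included 3 of the 38 macrophage identity genes listed, and those of the LPS-only broad regions included 1. These counts are small and were not tested. Adgre1, which encodes the macrophage surface protein F4/80, went from 2085 and 2173 bp to 780 and 645 bp. The highest score of its region was 26.8 and 27.9 in the controls and 27.4 and 17.2 after LPS. In pretreated cells the Adgre1 peak did not narrow (2040 and 1731 bp in IL-4 PT/ctrl, 2569 and 1908 bp in IL-4 PT/LPS). Ctsb, a lysosomal protease, went from 2251 and 2446 bp to 1848 and 1621 bp, while its RNAPII-pS5 peak was broad in both groups. RNAPII-pS5 was broad at 17 of the 23 regions in both ctrl/ctrl samples and at 4 in both ctrl/LPS samples. RNAPII-pS2 was broad at 10 of them in both IL-4 PT/ctrl samples and at 5 in both IL-4 PT/LPS samples. The 16 regions broad in all 4 samples included Fth1 (ferritin heavy chain), Tmsb4x (thymosin beta 4), and Marcks.

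Where the peaks lay in the genome also differed. The share annotated to promoters, the windows around transcription starts, was 17.7% and 17.4% in the controls (4782 and 4683 peaks) and 12.4% and 12.2% after LPS (3331 and 3305 peaks). The share in introns was 39.0% and 38.7% against 42.4% and 42.0%, and the intergenic share 34.1% and 34.8% against 38.0% and 38.8%. The groups did not overlap in these 3 shares, each with the smallest exact two-sided permutation p that the design allows (0.33).

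When the peaks of the 4 samples were merged into 41831 regions, 13230 regions were found in all 4 samples, 5852 (14%) in both LPS samples and neither control, and 4771 (11.4%) in both controls and neither LPS sample. Promoters made up 4.08% of the LPS-only regions, 19.3% of the control-only regions, and 16.6% of those found in all 4. LPS-only regions lay mainly in introns (44.2%) and between genes (47.3%). A p65 peak of both LPS samples overlapped 60.2% of the LPS-only regions, 8.05% of the control-only regions, and 66.1% of those in all 4. The number of p65 peaks itself was 9706 and 9556 in the controls and 26305 and 26820 after LPS.

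The coverage of genes by peaks was then followed from start to end, with each gene cut into 10 equal parts. In all 3684 tested genes shorter than 20 kb, peaks covered 32.9% and 31.6% of the first part in the controls and 26.2% and 26.1% after LPS. In the last part the values were 5.15% and 4.87% against 4.62% and 4.27%. In the middle, at the sixth part, they were 3.44% and 3.41% against 3.68% and 3.69%, so that the start lost coverage while the sixth part gained a little.

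In the 402 short genes called higher after LPS by the sum over the gene (the test is described next), the gain ran along the whole gene. The first part went from 14.8% and 13.5% to 30.5% and 29.6%, the sixth from 2.74% and 2.74% to 10.4% and 9.70%, and the last from 3.28% and 3.86% to 12.9% and 11.6%. The 10 kb after the end went from 3.8% and 3.6% to 5.59% and 5.47%. In the 1043 short genes called lower, the first part went from 34.5% and 33.7% to 13.4% and 13.6%. These 2 sets were chosen by the same contrast, so their values are a description.

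**Figure D3:**
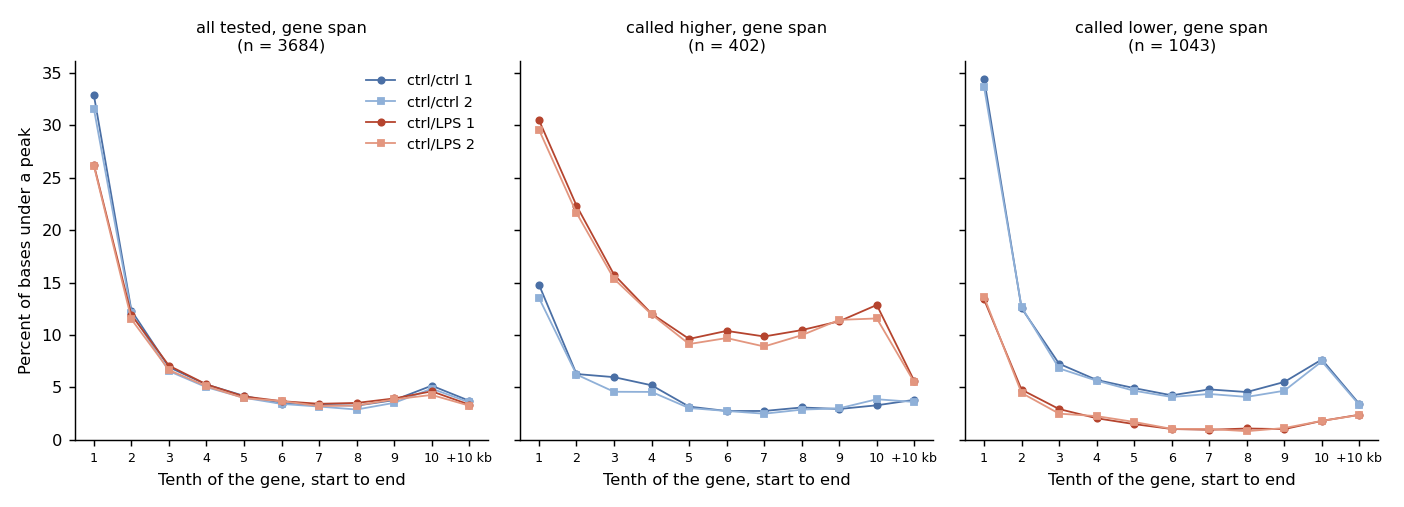
Percent of bases under an RNAPII-pS2 peak in each of 10 equal parts of genes shorter than 20 kb and in the 10 kb after their end, averaged over genes, for each of the 4 samples; panels show all genes tested and those called higher or lower after LPS by gene span. Over all genes the first part is lower after LPS; genes called higher gained coverage in every part, and genes called lower lost most at the first.

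For the test by gene, scores of all peaks named after a gene and outside intergenic sequence were added up and put on a log2 scale centred within each sample, with missing peaks set to a floor. limma was fitted over the 8 RNAPII-pS2 samples of the experiment, and a gene was called at a Benjamini-Hochberg adjusted p of at most 0.1. Of 10300 genes tested, 1821 (17.7%) were called higher and 2331 (22.6%) lower after LPS. Leaving out 1 sample changed which genes could be tested, because a peak was still needed in 2 samples. Without 1 ctrl/LPS sample 1289 of the 1821 higher genes were tested, and without 1 ctrl/ctrl sample 1238 of the 2331 lower genes. The balance of calls shifted in those fits, and this cannot be told apart from the change in the genes tested. The median change over all genes tested was −0.24 (−0.12 after quantile normalization), and 532 of the higher genes had no peak in either control while 1093 of the lower genes had none in either LPS sample. Among the 6506 genes with a peak in all 4 samples the balance turned, with 1033 higher and 759 lower. Genes with a peak in both LPS samples and neither control numbered 566 (4.81% of 11756), against 1143 (9.72%) for the reverse.

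Peaks are named after the gene with the nearest start, and 19.4% to 19.9% of non-intergenic peaks per sample lay in a transcript of another gene. The fit was therefore repeated with every peak that overlaps the gene (gene span), in which 2331 of 12407 genes (18.8%) were higher and 2887 (23.3%) lower. Of the genes called higher by name and tested by span, 79.6% were called higher by span and 1.72% lower. Of those called lower by name, 80.3% were called lower by span and 1.85% higher. The log2 change and the adjusted p of a gene that lacks peaks in a whole group both depend on the floor. Such a gene passed the filter through the other group alone, so its adjusted p is no separate evidence of a change. For such genes the scores and the adjusted p are given without a fold change.

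Cxcl2 and Tnfsf4 (OX40 ligand, a T cell co-stimulator) were among the largest rises. Cxcl2 had no peak in the controls and scored 54.2 and 45.5 after LPS (limma adjusted p = 0.000485). Tnfsf4 likewise had none and then scored 55.8 and 46.6 (limma adjusted p = 0.000531). The kinase gene Alpk2 had none and then scored 72.3 and 65.8 (limma adjusted p = 7.46e-05), and the eotaxin receptor gene Ccr3 had none and then 46.8 and 42.3 (limma adjusted p = 0.000265). All 4 were called higher by span as well.

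The largest falls by name included Tspoap1 and Fgd2. Tspoap1 scored 43.3 and 55.8 in the controls and had no peak after LPS (limma adjusted p = 0.000485). Fgd2, an activator of the GTPase Cdc42, scored 59.1 and 64.2 in the controls and 4.01 and no peak after LPS (limma adjusted p = 0.00177). Both were lower by span as well. At Tspoap1, however, a peak in the same merged region but outside the annotated gene scored 58.9 and 63.1 after LPS, and with intergenic peaks counted its change was 0.087.

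Some of the largest changes by name were changes of name. Eif4a2 had no peak in the controls and scores of 49.9 and 42.0 after LPS, while Snord2, a small nucleolar RNA inside Eif4a2, scored 51.7 and 48.6 and then had none. The peak of both groups lay at the start of the pair, and by span Eif4a2 changed by −0.47 (adjusted p = 0.477, limma), so it was not called. Apoa1 had scores of 71.5 and 76.1 after LPS and none before, but these peaks lay in introns of the neighbouring Sik3 and none overlapped Apoa1 itself.

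Immediate-early transcription factors, which are switched on without new protein synthesis, had 7 of 29 tested members higher and 3 lower. Their median change was 0.26 (all genes −0.24), and 2 members had no control peak. Egr1 had no control peak and scores of 11.8 and 14.7 after LPS (limma adjusted p = 0.00255). Fosl2, an AP-1 subunit, scored 8.02 and 12.3 in the controls and 89.3 and 96.3 after LPS, a log2 change of 3.13 ± 0.26 (SE, limma adjusted p = 0.000508).

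Fos scored 19.2 and 21.5 against 36.4 and 29.9 (0.61 ± 0.22, limma adjusted p = 0.0669), a call that was lost when any 1 of the 4 samples was left out. Klf6 scored 45.2 and 42.5 against 13.6 and 22.1 (−1.43 ± 0.30, limma adjusted p = 0.00952), and was lower by span too, but with intergenic peaks counted it was higher (0.55, limma adjusted p = 0.0016). Egr3 stayed at 90.8 and 82.4 against 94.1 and 89.7 and was not called. By name 24.1% of the family were higher and 10.3% lower (all genes 17.7% and 22.6%), and by span the counts were 7 higher and 1 lower with a median of −0.03.

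Of the NF-kB subunits and their inhibitors, 7 of 26 were higher (26.9%) and 4 lower (15.4%), against 17.7% and 22.6% of all genes. Their median change was 0.55, and no member lacked peaks in a whole group. In the span fit 5 of 26 were higher (19.2%, all genes 18.8%) and 3 lower (11.5%, all genes 23.3%). Nfkbia scored 75.2 and 72.0 in the controls and 129 and 129 after LPS, a log2 change of 0.72 ± 0.12 (limma adjusted p = 0.00392). By span it scored 20.4 and 12.1 against 40.8 and 42.4, which did not pass the test (limma adjusted p = 0.122). Tnip1, a partner of A20, scored 6.70 and 11.2 against 40.8 and 28.2 (1.88 ± 0.60, limma adjusted p = 0.0444). Traf3, an adaptor of the interferon branch, scored 4.21 and no peak against 77.9 and 49.96 (limma adjusted p = 0.000976).

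Members called lower by name were Tnfaip3, Cyld, Chuk, and Malt1. Tnfaip3 scored 21.5 and 18.3 against 10.1 and 6.77 (−1.35 ± 0.38, limma adjusted p = 0.0283), although its widest peak had grown as described above. With intergenic peaks counted, which include those past its end, it was higher (0.84, limma adjusted p = 0.00128). Malt1, the paracaspase of antigen-receptor signalling to NF-kB, scored 30.5 and 38.2 against 10.2 and 6.30 (−2.18 ± 0.35, limma adjusted p = 0.00399). Cyld, a deubiquitinase like A20, scored 14.6 and 19.7 against no peak and 6.53 (limma adjusted p = 0.0403). Nfkbiz, an NF-kB cofactor for secondary genes, scored 37.2 and 30.9 against 81.2 and 64.2 but missed the threshold (1.00 ± 0.42, limma adjusted p = 0.109).

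Cytokines and growth factors had 9 of 26 members higher and 4 lower by name (34.6% and 15.4%, all genes 17.7% and 22.6%). By span 11 of 22 were higher and 2 lower (50% and 9.09%, all genes 18.8% and 23.3%). Tnf scored 42.6 and 42.5 against 65.1 and 69.3 (0.57 ± 0.14, limma adjusted p = 0.0197), a call lost without ctrl/ctrl replicate 1 or ctrl/LPS replicate 2. Il6, the inducer of the acute-phase response, scored 9.05 and 8.90 against 50.8 and 58.6 (2.51 ± 0.31, limma adjusted p = 0.00188). Il1rn, the antagonist of the IL-1 receptor, scored 15.8 and 18.4 against 76.9 and 63.6 (1.95 ± 0.20, limma adjusted p = 0.000943). In all 3 the LPS samples lay above both controls.

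Ifnb1 scored 4.63 and 4.1 against 26.2 and 27.4 (2.53 ± 0.46, limma adjusted p = 0.00569). Lif had no control peak and then 18.1 and 13.2 (limma adjusted p = 0.00325). Il1a scored 5.92 and 14.6 against 22.96 and 17.07 and was called only by span (limma adjusted p = 0.188 by name and 0.0773 by span). Il12b, a subunit of IL-12, scored 20.6 and 21.5 against no peak and 3.36 (limma adjusted p = 0.00651), and with intergenic peaks counted it was higher (1.55, limma adjusted p = 0.000236).

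Il1b was called lower by name and higher by span. Under its own name it scored 31.9 and 21.7 in the controls and had no peak after LPS (limma adjusted p = 0.00117), and the control peaks lay about 2 kb upstream of the gene. On the gene itself it had no control peak and scored 46.4 and 41.4 after LPS (limma adjusted p = 0.000657), because the nearest start to those wide peaks belonged to the antisense gene Il1bos.

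Chemokines had 9 of 15 members higher (60%) and 1 lower (6.67%) by name, against 17.7% and 22.6% of all genes. Their median change was 0.67, with 3 members without a control peak. Ccl3 scored 33.1 and 29.7 against 84.0 and 89.3 (1.38 ± 0.17, limma adjusted p = 0.00177), and Ccl4 26.7 and 33.2 against 62.4 and 63.8 (0.99 ± 0.31, limma adjusted p = 0.0442), the latter a call that 3 of the 4 single-sample omissions removed. Ccl7, a monocyte attractant, scored 11.2 and 5.16 against 50.03 and 37.08 (2.41 ± 0.35, limma adjusted p = 0.00303). Cxcl10, which attracts T cells and is induced by interferon, scored 25.5 and 16.6 against 77.8 and 82.5 (1.87 ± 0.32, limma adjusted p = 0.00469).

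Ccl5 had no control peak and scores of 15.3 and 15.3 (limma adjusted p = 0.0029), a call that was lost with intergenic peaks counted (−0.15). Cxcl3 had none and then 17.1 and 18.9 (limma adjusted p = 0.00302). Cxcl1 had a single peak, in ctrl/LPS replicate 2 (6.43), and was not tested. Ccl12 went from 28.9 and 35.1 to 22.2 and 22.4 and was not called, while the bases under its peaks were higher (2.07 on the log2 scale, limma adjusted p = 0.00134). By span the chemokines had 8 members higher and none of 15 lower (all genes 18.8% and 23.3%).

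Interferon response genes had 11 of 35 members higher (31.4%) and 6 lower (17.1%) by name, against 17.7% and 22.6% of all genes (median 0.53). In the span fit 8 of 35 were higher (22.9%, all genes 18.8%) and 4 lower (11.4%, all genes 23.3%). Rsad2 scored 15.1 and 13.1 against 65.4 and 70.4 (2.18 ± 0.63, limma adjusted p = 0.0325). Oasl1, of the antiviral oligoadenylate synthetase family, had no control peak and then 25.3 and 19.7 (limma adjusted p = 0.00188). Isg20, an RNA exonuclease, had 8.98 and no peak against 32.6 and 30.8 (limma adjusted p = 0.024).

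Mx1 was not called by score (92.5 and 105 against 99.6 and 79.2). In an LPS-only broad region on the gene the widest peak went from 1233 and 1096 bp to 2833 and 2899 bp. In another such region on it the widest peak went from 1521 and 1636 bp to 2185 and 2140 bp. Members lower by name included the transcription factors Irf1 and Irf7, which were lower by span as well, and the receptor chain Ifnar1. Irf1 was among the LPS-only broad regions all the same.

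**Figure D4:**
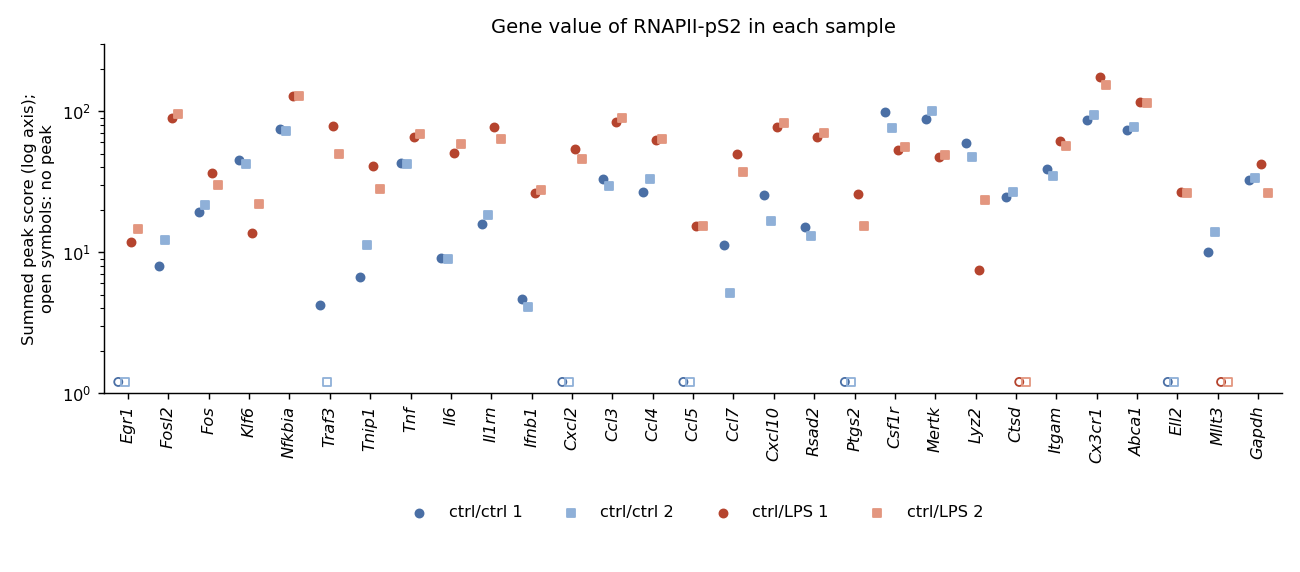
Summed RNAPII-pS2 peak score (log axis) of 29 genes in each of the 4 samples, grouped by role from immediate-early factors to Gapdh; open symbols at the bottom mark samples with no peak. The inflammatory genes drawn lie higher in both LPS samples, Klf6, Csf1r, Mertk, Lyz2, Ctsd, and Mllt3 lie lower, and the Gapdh samples overlap. Inflammatory genes called lower by this measure, such as Il1b, Il12b, Tnfaip3, and Malt1, are not drawn.

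Feedback phosphatases and mRNA decay factors had 10 of 29 members higher (34.5%) and 5 lower (17.2%), against 17.7% and 22.6% of all genes. Their median change was 0.32, with 1 member without control peaks and 2 without LPS peaks. Dusp1 scored 10.6 and 25.2 against 33.5 and 38.6 (1.05 ± 0.42, limma adjusted p = 0.0967), a call that 3 of the 4 single-sample omissions removed. Dusp2, a nuclear ERK phosphatase, was called lower by name (10.5 and 9.62 against no peak, limma adjusted p = 0.00177) and higher by span (7.52 and 14 against 52.4 and 56.6, limma adjusted p = 0.023), since the wide LPS peak carried the name of the neighbouring Astl. Zfp36, the mRNA-destabilizing protein tristetraprolin, scored 51.8 and 48.5 against 49.9 and 47.1 and was not called, and Gadd45b scored 94.9 and 102 against 120 and 124 and was not called either.

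The LPS receptor and its signalling chain had 9 of 29 members higher (31%) and 4 lower (13.8%) by name, against 17.7% and 22.6% of all genes (median 0.25). In the span fit 9 of 30 were higher (30%, all genes 18.8%) and 6 lower (20%, all genes 23.3%), and Myd88 was not among the higher ones. Ly96 (MD-2), the partner that holds LPS on TLR4, and the adaptor gene Myd88 were among the members higher by name. The receptor genes Tlr4, Cd14, and Tlr2 did not pass the test by name. Tlr4 scored 57.4 and 65.5 against 70.3 and 47.6, Cd14 34.8 and 22 against 35.9 and 34.4, and Tlr2, the receptor for bacterial lipoproteins, 17.04 and 23.69 against 11.4 and 14.5, and none of the 3 was called by name (Tlr4 was higher by span, limma adjusted p = 0.0494). The kinase gene Mapk8 (JNK1) scored 42.0 and 53.9 against 15.2 and 21.2 (−1.50 ± 0.36, limma adjusted p = 0.0169).

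Tab2, which links ubiquitin chains to the kinase TAK1, scored 4.54 and 2.15 against 9.57 and 24.0 (2.19 ± 0.68, limma adjusted p = 0.0417). Ticam2, the bridging adaptor of TLR4's interferon branch, scored 11.5 and 11.1 against 3.63 and no peak (limma adjusted p = 0.0182). Clec4d, a C-type lectin of myeloid cells, scored 27.1 and 25.4 against 40.8 and 34.5 and was not called.

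Genes of prostaglandin, nitric oxide, and inflammatory metabolism had 12 of 25 members higher (48%) and 1 lower (4%), against 17.7% and 22.6% of all genes. Their median change was 0.96, with 3 members without control peaks. Ptgs2 (COX-2), the inducible prostaglandin synthase, had no control peak and scored 25.9 and 15.2 after LPS (limma adjusted p = 0.00365). Ptgs1 (COX-1), the constitutive form, was the lower member, with 25.8 and 29.4 against no peak and 7.55 (limma adjusted p = 0.0222). Acod1 had no peak and 4.64 against 23.9 and 32.5 (limma adjusted p = 0.0122).

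Inflammasome genes had 3 of 14 members higher (21.4%) and 2 lower (14.3%) by name, near the 17.7% and 22.6% of all genes (median −0.06). In the span fit 5 of 13 were higher (38.5%, all genes 18.8%) and 1 lower (7.69%, all genes 23.3%). Casp4 (caspase-11), the sensor of cytosolic LPS, scored 21.1 and 16 against 46.8 and 42.6 (1.19 ± 0.23, limma adjusted p = 0.00698). Nek7, a kinase that NLRP3 needs, scored 28.1 and 38.2 against 71.7 and 67.9 (1.00 ± 0.20, limma adjusted p = 0.0079). Nlrp3 scored 25.9 and 35.4 against 36.2 and 33.2 and was not called by name, and by span it was lower (−0.78, limma adjusted p = 0.0185) although its widest peak had grown. Aim2, a sensor of cytosolic DNA, was lower by name (−1.43 ± 0.45, limma adjusted p = 0.0416) and higher by span (0.51 ± 0.13, limma adjusted p = 0.02).

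Macrophage identity genes had 5 of 37 members higher (13.5%) and 10 lower (27%) by name, near the shares of all genes (17.7% and 22.6%; median −0.25, 1 without control peaks, 2 without LPS peaks) and 6 of 38 higher and 13 lower by span (median −0.33). The medians were close to those of all genes (−0.24 and −0.23). Csf1r, the MCSF receptor, scored 99.4 and 76.0 against 52.9 and 56.1 (−0.77 ± 0.17, limma adjusted p = 0.0132), but by the annotated transcript its change was 0.42 and not called. Mertk, a receptor for engulfing dead cells, scored 88.3 and 100 against 47.7 and 49.2 (−1.05 ± 0.20, limma adjusted p = 0.00683). Lyz2 (lysozyme) scored 59.3 and 47.3 against 7.42 and 23.6 (−2.09 ± 0.78, limma adjusted p = 0.0775).

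Ctsd, a lysosomal protease, scored 24.7 and 26.5 and then had no peak (limma adjusted p = 0.00306), as did Ccr2, the receptor for Ccl2 (11.6 and 10.6, limma adjusted p = 0.00482). Itgam (CD11b) was higher (38.9 and 34.5 against 61.2 and 56.3, 0.59 ± 0.15, limma adjusted p = 0.0211), and so was Cx3cr1, the fractalkine receptor (86.0 and 94.5 against 176 and 153, 0.77 ± 0.11, limma adjusted p = 0.00301). Cx3cr1 is annotated over 168.264 kb, and 3.15% and 3.11% of that span lay under peaks in the controls and 5.96% and 5.22% after LPS. That span includes an LPS-only peak of 2339 and 2260 bp that carries the name of the neighbouring Csrnp1. Spi1 (PU.1) and Adgre1 were not called.

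Lipid-sensing receptors and cholesterol genes had 5 of 23 members higher (21.7%) and 6 lower (26.1%) by name, near the 17.7% and 22.6% of all genes (median −0.03). In the span fit 5 of 20 were higher (25%, all genes 18.8%) and 3 lower (15%, all genes 23.3%). Abca1, the cholesterol exporter, scored 73.4 and 77.9 against 117 and 115 (0.52 ± 0.19, limma adjusted p = 0.0669), and Scarb1, the HDL receptor, 29.8 and 30.2 against 9.08 and 3.89 (−2.43 ± 0.90, limma adjusted p = 0.0752), and both calls were lost when any 1 of the 4 samples was left out. Lpl, lipoprotein lipase, scored 13.6 and 14.7 against no peak and 4.46 (limma adjusted p = 0.0157).

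Genes of the RNAPII elongation machinery had 4 of 31 members higher (12.9%) and 5 lower (16.1%), against 17.7% and 22.6% of all genes. Their median change was −0.38, with 2 members without control peaks and 3 without LPS peaks. In the span fit 5 of 30 were higher (16.7%, all genes 18.8%) and 7 lower (23.3%, all genes 23.3%). Ell2, a subunit of the super elongation complex, had no control peak and then 26.7 and 26.2 (limma adjusted p = 0.00304). Mllt3 (AF9), another partner of that complex, scored 10.1 and 13.8 and then had none (limma adjusted p = 0.00557), as did Ssrp1, a subunit of the histone chaperone FACT (8.23 and 11.1, limma adjusted p = 0.00569). Polr2a, the catalytic subunit of RNAPII itself, scored 195 and 157 against 169 and 158 and was not called by name (by span it was lower, −0.27, limma adjusted p = 0.0677).

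Cytosolic ribosomal protein genes had 2 of 64 members higher and 6 lower (median −0.34), under the share of all genes in both directions. Rps15 scored 27.6 and 22.5 against 8.55 and 3.17 (−2.35 ± 0.44, limma adjusted p = 0.00638), and Rps12 was not called (52.9 and 41.0 against 58.1 and 44.2). Gapdh, a glycolytic gene often used as a reference, scored 32.7 and 33.8 against 42.1 and 26.5 and was not called.

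The study's own RNA-seq lists of LPS-activated mRNAs come from another assay and from a longer exposure to LPS than the 1 hr of these samples. Of mRNAs attenuated by IL-4 pretreatment, 139 of 452 were higher (30.8%) and 32 lower (7.08%) in RNAPII-pS2 (median 0.29). Of those insensitive to IL-4 pretreatment, 187 of 590 were higher (31.7%) and 66 lower (11.2%, median 0.47). Of those increased by it, 44 of 125 were higher (35.2%) and 15 lower (12%, median 0.49). The shares of all genes were 17.7% and 22.6%. Members without control peaks numbered 19, 47, and 10 in that order, and those without LPS peaks 7, 20, and 4. The study chose these lists on the response to LPS, so their direction is no independent evidence, and most members did not pass the test in either direction at 1 hr.

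**Figure D5:**
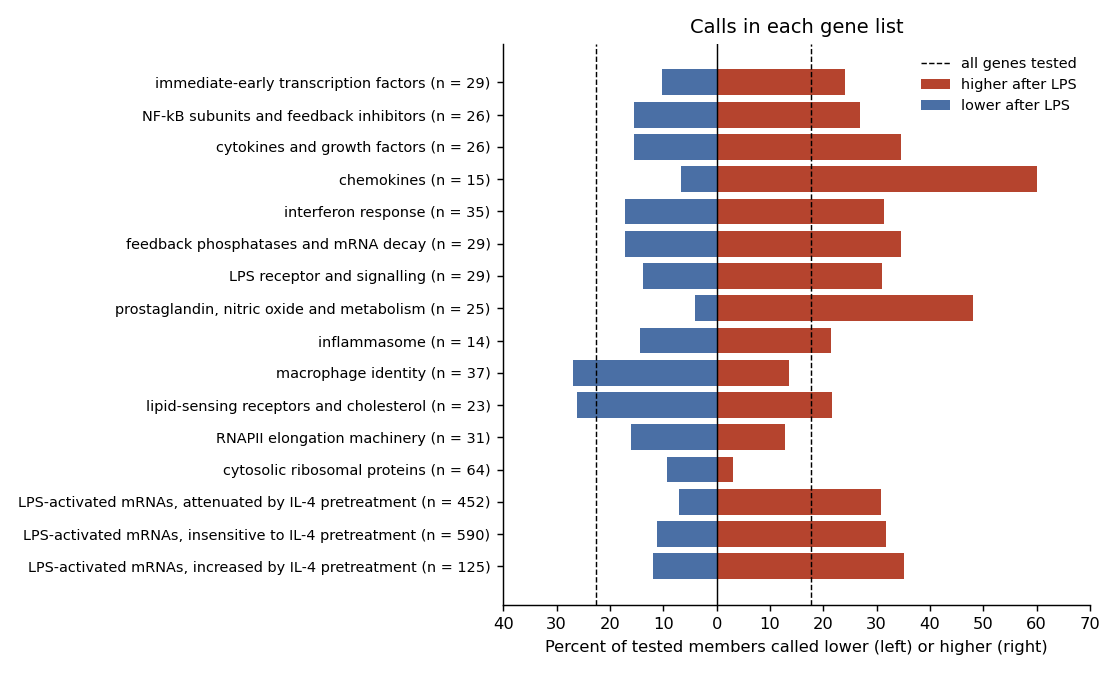
Percent of the tested members of each gene list called higher (right, red) or lower (left, blue) after LPS at a limma adjusted p of at most 0.1, with n the members tested; dashed lines are the shares of all 10300 genes (17.7% higher, 22.6% lower). Chemokines reach 60% higher and prostaglandin, nitric oxide and metabolism genes 48%, while on the lower side macrophage identity and lipid genes lie near the line.

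RNAPII-pS5 was measured in the same 4 conditions with libraries of its own. In its fit 1299 of 8741 genes (14.9%) were higher and 2835 (32.4%) lower, with 20803 and 19279 peaks in the controls and 14476 and 15349 after LPS. Of genes called higher in RNAPII-pS2 and tested for RNAPII-pS5, 53.7% were also higher and 2.91% lower. Of those called lower, 68.5% were lower and 1.32% higher. Chemokines had 11 of 16 members higher in RNAPII-pS5 and 2 lower, and NF-kB genes 10 of 26 higher and 3 lower.

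The p65 lists were compared in the same way. A p65 peak in both LPS samples and in neither control was found at 1958 of 10300 genes (19%). The share was 29.4% of the genes called higher in RNAPII-pS2, 11.3% of those called lower, and 18.9% of those not called. Interferon response genes had such a peak at 11 of 35 members (31.4%), and NF-kB genes at 0 of 26. These shares describe the lists, and the number of p65 peaks per sample differed between the groups as given above.

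Whether the response to LPS depended on IL-4 pretreatment was tested as a difference of differences over the 8 samples. It passed at 969 of 10300 genes, 474 (4.6%) with a higher and 495 (4.81%) with a lower response after pretreatment. In the pretreated arm alone 1392 genes were higher and 1364 lower after LPS. Without ctrl/LPS replicate 1 only 7 genes passed, without ctrl/LPS replicate 2 there were 53, and without ctrl/ctrl replicate 1 or 2 there were 333 and 321.

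Il1rn, Nfkbia, and Fosl2 had a smaller response after pretreatment. Il1rn scored 39.7 and 50.6 in IL-4 PT/ctrl and 67.4 and 80.7 in IL-4 PT/LPS, a difference in response of −1.52 ± 0.28 (limma adjusted p = 0.0371). Nfkbia scored 112 and 125 and then 122 and 138 (−0.88 ± 0.16, limma adjusted p = 0.0394). Fosl2 scored 27.97 and 28.22 and then 82.9 and 62.9 (−2.06 ± 0.37, limma adjusted p = 0.0362). These 3 genes were chosen after their values were seen. For Cxcl2 the difference was 0.05 (limma adjusted p = 0.977).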

How the data were processed

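The authors aligned ChIP-seq reads to mm10, called peaks per sample with MACS2 at a q cut-off of 0.01, removed ENCODE blacklist regions, and annotated peaks with HOMER. The submitters' processing notes name BWA 0.7.10, SAMtools 0.1.19, MACS2 2.0.10, and HOMER 4.2. The deposited peak score is a −log10 value, and whether of p or q is not given in the sources used here. Depth is unknown, which of 2 library kits was used per sample is not given, and no input control is stated.

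Per gene, the scores of non-intergenic peaks were summed by the annotated name (905 older symbols replaced), a missing value was set to 1.39 (the lowest score), and log2 values were centred per sample on the median of 5244 genes with a peak in all 8 samples. Genes that had peaks in 2 or more of the 4 samples were fitted with limma 3.58.1 in R 4.3.3 over 8 samples (trended prior, Benjamini-Hochberg adjusted p of at most 0.1). Gene spans were taken from GENCODE vM21. Python 3.11.15, NumPy 2.4.6, and pandas 2.3.3 were used, and the fit was tested on simulated data. The replicates are described as biological. Members, lists, and tests were chosen with earlier results of these data known. The genes named were the called genes of largest change (15 higher and 10 lower whose groups did not overlap), up to 5 called and 3 uncalled members per list, a fixed set of inflammatory and macrophage genes, and the 8 largest differences with IL-4 pretreatment, and from these the text gives a selection made with their values in view. Alternatives are given in the closing section.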

Additional observations from a re-analysis of the deposited data

Results flagged for a closer look

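The response to LPS differed with IL-4 pretreatment at 969 genes (limma, adjusted p of at most 0.1 for the difference of differences). This count fell to 7 without ctrl/LPS replicate 1, to 53 without ctrl/LPS replicate 2, to 333 without ctrl/ctrl replicate 1, and to 321 without ctrl/ctrl replicate 2. The 8 largest differences were at genes with no peak in at least 1 sample, so their size and adjusted p depend on the floor. They are on a log2 scale where a positive value is a higher response after pretreatment.

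Mllt3 differed by 6.48 (limma adjusted p = 0.0216), with scores of 10.1 and 13.8 in ctrl/ctrl, none in ctrl/LPS or IL-4 PT/ctrl, and 24.9 and 11.3 in IL-4 PT/LPS. Wdr61 differed by 5.59 (limma adjusted p = 0.0224) and Rap1a by 5.37 (limma adjusted p = 0.0277), both with peaks in the same 2 groups as Mllt3. Draxin differed by −6.19 (limma adjusted p = 0.0227) and Chrna10 by −5.76 (limma adjusted p = 0.0289), both with peaks in ctrl/LPS and IL-4 PT/ctrl and none in the other groups.

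Snord2 differed by 5.79 (limma adjusted p = 0.014) and Eif4a2 by −5.24 (limma adjusted p = 0.0216), the pair whose peak changed its name. Smpd3 differed by 5.38 (limma adjusted p = 0.0477), with 22.99 and 30.8 in ctrl/ctrl and 52.1 and 29.2 in IL-4 PT/LPS. The causes of these differences were not tested.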

How the results depend on the processing

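Leaving out 1 sample gave 896 to 1348 genes higher and 461 to 1925 lower. Without either ctrl/LPS sample 896 were higher, and without ctrl/ctrl replicate 1 or 2 there were 502 and 461 lower. A gene then needs a peak in 2 of 3 samples, which left 1289 of the 1821 higher and 1238 of the 2331 lower genes tested, and none was called the opposite way. With a peak required in all 4 samples 1033 were higher and 759 lower. The fit with a replicate block gave 1818 higher and 2308 lower, and same-numbered samples did not deviate together (r = −0.018 to 0.007). Of all calls, 43.9% were higher, 48.0% without centring, and 49.8% after quantile normalization.

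The difference with IL-4 pretreatment passed at 347 genes at an adjusted p of at most 0.05 and 2245 at an unadjusted one, at 563 with a peak in all 4 samples, 574 with no filter, 609 with the floor raised, 494 by covered bases, 1524 with intergenic peaks, 603 with the replicate block, and 7 to 333 with 1 sample left out. It cannot be had from the 4 samples alone. Genes with a peak only after LPS numbered 793 to 872 with 1 sample left out (566 with all). With the upper 50% of peaks, 3851 regions were LPS-only and 3172 control-only. Broad regions were 277 and 105 at 1500 bp and 23 and 0 at 3000 bp, widths chosen after seeing the data.

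These log2 changes turned sign, counting only genes called in at least 1 of the 2 fits. By gene span they were Aim2 0.51, Dusp2 2.28, Eif4a2 −0.47 (its IL-4 difference 0.46), Il1b 4.86, Nlrp3 −0.78, Smpd3 0.24, and Tlr4 0.57. With intergenic peaks they were Aim2 0.41, Ccl5 −0.15, Dusp2 1.05, Il12b 1.55, Il1b 0.83, Klf6 0.55, Nlrp3 −0.83, Rap1a 0.055, Scarb1 0.24, Ticam2 0.39, Tlr4 0.37, Tnfaip3 0.84, and Tspoap1 0.087. By the annotated transcript, added after seeing the data, they were Csf1r 0.42, Dusp2 2.37, Egr3 1.87, Eif4a2 −1.67 (IL-4 difference 0.89), and Il1b 2.999. By covered bases they were Ccl12 2.07, Fos −0.60, Spi1 1.39, Tlr2 0.96, Tnfaip3 1.82, and Zfp36 0.43, and by highest score Casp4 −0.051, Gapdh 0.73, Itgam −0.14, and Zfp36 0.94. The cause was not tested.

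Other calls were lost with 1 sample left out. Without ctrl/LPS replicate 1 they were Aim2, Ccl4, Cyld, Dusp1, Lyz2, Rap1a, and Tnip1. Without ctrl/LPS replicate 2 they were Ccl4, Dusp1, Rsad2, Tab2, Tnf, and Tnfaip3. Without ctrl/ctrl replicate 1 they were Aim2, Ccl4, Cyld, Dusp1, Lyz2, Tnf, Tnfaip3, and Tnip1. Without ctrl/ctrl replicate 2 they were Aim2, Cyld, Isg20, Itgam, Lyz2, Mapk8, Ptgs1, Rsad2, Tab2, Ticam2, and Tnfaip3.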
